A study of Sus scrofa with 15 samples.

Results

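Genes for the carriers of sugars, lactate and neutral or cationic amino acids were described in 3 populations of porcine NK cells. The genes were taken by symbol: every row of the count table whose name starts with SLC2A (hexose carriers), SLC16A (monocarboxylate carriers), SLC1A (glutamate and neutral amino acid carriers), SLC3A and SLC7A (the heavy and light chains of heteromeric amino acid carriers, with the cationic carriers), SLC38A (sodium-coupled neutral amino acid carriers) or SLC43A. This rule gave 65 of 29886 genes, and it used no measured value. Of these, 63 are named as carriers. SLC2A4RG, named for a regulator of the SLC2A4 gene, and SLC7A6OS, named as the opposite strand of SLC7A6, share a prefix only and are counted among the 65 but not among the carriers.

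The populations were CD8αhigh NK cells of blood (cNK cells), CD8αhigh NK cells of liver and CD8αdim NK cells of liver (lrNK cells). All 3 were sorted from the same 5 pigs, which were 6 months old, after depletion of CD3+ and CD172a+ cells, so each population had 5 libraries and each pig gave 3 of the 15. Blood was taken first and the liver was flushed with saline through the portal vein. The libraries read transcripts from the 3′ end, so a count does not grow with transcript length. Levels are given as CPM, the count scaled to library size with TMM factors. A level also depends on how fully a gene's 3′ end is annotated and on how reads at shared loci were assigned. Neither was tested, so ranks and differences in level between genes are approximate. A bulk library does not tell fewer cells of a kind from less RNA per cell.

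Sugars, lactate and amino acids cross the plasma membrane through carriers. Glucose enters lymphocytes by facilitated diffusion through GLUT proteins, and lactate leaves with a proton through monocarboxylate carriers. Amino acids enter by sodium-coupled uptake, as of glutamine, serine and alanine, or by exchange, in which 1 amino acid leaves as another enters. The light chains of the SLC7A family reach the membrane only when bound to a heavy chain, SLC3A2 (CD98) or SLC3A1. Activated NK cells of mouse and human are known to raise glucose and amino acid uptake, the latter through SLC7A5 with SLC3A2 and through SLC1A5.

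Library totals ran from 2003499 to 5680221 counts, with a median of 3686363, and no pair of libraries within a population agreed within sampling noise (chi-square per degree of freedom 9.82 to 51.3 over 30 pairs). All 11 NK cell markers listed were detected in every population. Summed B cell markers ran from 457 to 1079 CPM in the lrNK libraries, from 21.5 to 172 CPM in blood and from 5.73 to 60.8 CPM in liver CD8αhigh cells, with CD79A at 0 in all 3 populations and 7 of the 8 listed genes counted. Summed T cell markers were 110 to 593 CPM in lrNK cells, 637 to 1203 CPM in blood and 714 to 1076 CPM in liver CD8αhigh cells, with CD4, CD5 and CD28 at 0 in all 3. Hepatocyte markers summed to at most 8.14 CPM and myeloid markers to at most 29.5 CPM in any library, with CSF1R, CD163, MARCO, C1QA and C1QB at 0 throughout. Erythroid markers reached 318 CPM in the blood library of pig 4, 58.7 CPM in liver CD8αhigh cells of pig 1 and 24.1 CPM in lrNK cells of pig 1. Platelet markers summed to 73.4 to 112 CPM in blood, 88.1 to 117 CPM in liver CD8αhigh cells and 72.3 to 178 CPM in lrNK cells. The part of these other cells in the differences given here was not tested. In 1 lrNK library, that of pig 3, CXCR6 was at 86.2 CPM and TBX21 at 80.9 CPM, against 607 to 837 CPM and 201 to 246 CPM in the other 4. In the liver CD8αhigh library of pig 1, EOMES was at 218 CPM and CXCR6 at 153 CPM, where the liver CD8αhigh libraries of the other 4 held 14.1 to 62.5 CPM and 5.25 to 46.6 CPM.

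Of the 65 genes, 19 (29.2%) had 0 counts in all 15 libraries, against 11717 of the 29886 genes in the table (39.2%). A further 3 had at most 3 counts in any library, and 43 had more than 3 in at least 1 library. The filter on low counts passed 31 genes. It left out 34, namely the 19 at 0 and 15 that were counted. A gene at 0 was not detected at this depth, and in each library a count of 0 still allows up to 3 counts.

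Among the sugar carriers, 8 of 14 SLC2A genes passed. SLC2A2 (GLUT2), SLC2A4 (the insulin-responsive GLUT4), SLC2A5 (the fructose carrier GLUT5), SLC2A7 and SLC2A9 (a urate carrier) were at 0, and SLC2A10 was below the filter. In the SLC16A family 6 of 14 genes passed, SLC16A8 was at 0, and 7 genes, among them SLC16A4, SLC16A7 (MCT2), SLC16A9, SLC16A12, SLC16A13 and SLC16A14, were below the filter. In the SLC1A family the glutamate carriers SLC1A1, SLC1A3, SLC1A6 and SLC1A7 were at 0 and SLC1A2 was below the filter, whereas both neutral amino acid carriers, SLC1A4 and SLC1A5, passed. Both SLC3A heavy chains passed. In the SLC7A family 5 of 14 passed, with SLC7A2, SLC7A3, SLC7A9, SLC7A10 and SLC7A13 at 0 and SLC7A4, SLC7A5, SLC7A11 and SLC7A14 below the filter. In the SLC38A family 6 of 11 passed, with SLC38A3, SLC38A8 and SLC38A11 at 0 and SLC38A4 and SLC38A7 below the filter, and in the SLC43A family 2 of 3 passed, with SLC43A1 at 0.

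**Figure D1:**
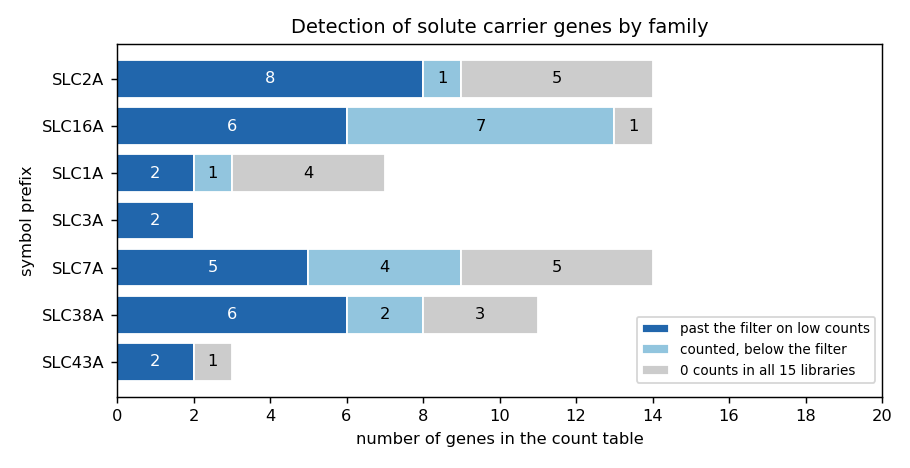
Number of genes in the count table for each symbol prefix (horizontal axis, genes; vertical axis, prefix), split by whether the gene passed the filter on low counts, was counted but stayed below it, or had 0 counts in all 15 libraries. Of the 65 genes, 31 passed, 15 were counted below the filter and 19 were at 0, and both SLC3A genes passed.

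Some of the genes below the filter had counts in few libraries. The row named SLC7A5, the symbol of the light chain LAT1 that carries large neutral amino acids, had 2, 0, 14, 0 and 6 counts in the blood libraries of pigs 1 to 5, 5, 0, 3, 0 and 0 in liver CD8αhigh cells, and 0, 0, 0, 7 and 0 in lrNK cells. No population held it in all its libraries. The RefSeq table of this assembly lists this locus as a long non-coding RNA, and the other 64 genes as protein-coding, so the counts may not measure the LAT1 transcript. SLC7A11, the cystine and glutamate exchanger, had 1, 12, 0, 9 and 4 counts in lrNK cells and 0 in the 10 CD8αhigh libraries. SLC16A9 (17 counts) and SLC16A7 (8 counts) were counted in a single library, the lrNK library of pig 3. None of these genes was tested.

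Summed over the 63 carriers, levels were 819 ± 53.1 CPM (SD, n = 5) in blood, 971 ± 46.7 CPM in liver CD8αhigh cells and 793 ± 123 CPM in lrNK cells. SLC38A2 (SNAT2), a sodium-coupled carrier of alanine, glutamine and other small neutral amino acids, stood first with a mean of 332 CPM over all libraries. It made up 28.9 to 44.1% of the counts on carriers in a library. Next by mean level came SLC7A6 at 82.1, SLC7A6OS at 66.9, SLC38A9 at 48.9, SLC1A4 at 40.3, SLC2A12 at 38.7, SLC1A5 at 35.6, SLC7A1 at 32.7, SLC38A10 at 29.6 and SLC43A2 at 29.1 CPM.

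A single edgeR quasi-likelihood fit of all 15 libraries was used to compare the populations, with Benjamini-Hochberg adjustment over the 10939 genes past the filter and a threshold of 0.05 on the adjusted p. Between lrNK cells and blood, 7 of the 31 tested genes passed, 4 higher and 3 lower in lrNK cells, where 18.2% of all genes tested passed, 8.62% higher and 9.6% lower. Between lrNK cells and liver CD8αhigh cells, 9 of 31 passed, 3 higher and 6 lower, against 14.6% of all genes, 6.96% higher and 7.68% lower. The 5 libraries of each population did not overlap for 4 and 8 of the 31 genes in these comparisons, against 13.5% and 11.9% of all genes. The median log2 fold change of the 31 genes was -0.02 against blood and -0.12 against liver CD8αhigh cells, and that of all genes tested was 0.01 and 0.02. Both comparisons share the lrNK libraries, so they are not independent of each other. The plot of fold changes gives all 31 genes in both.

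**Figure D2:**
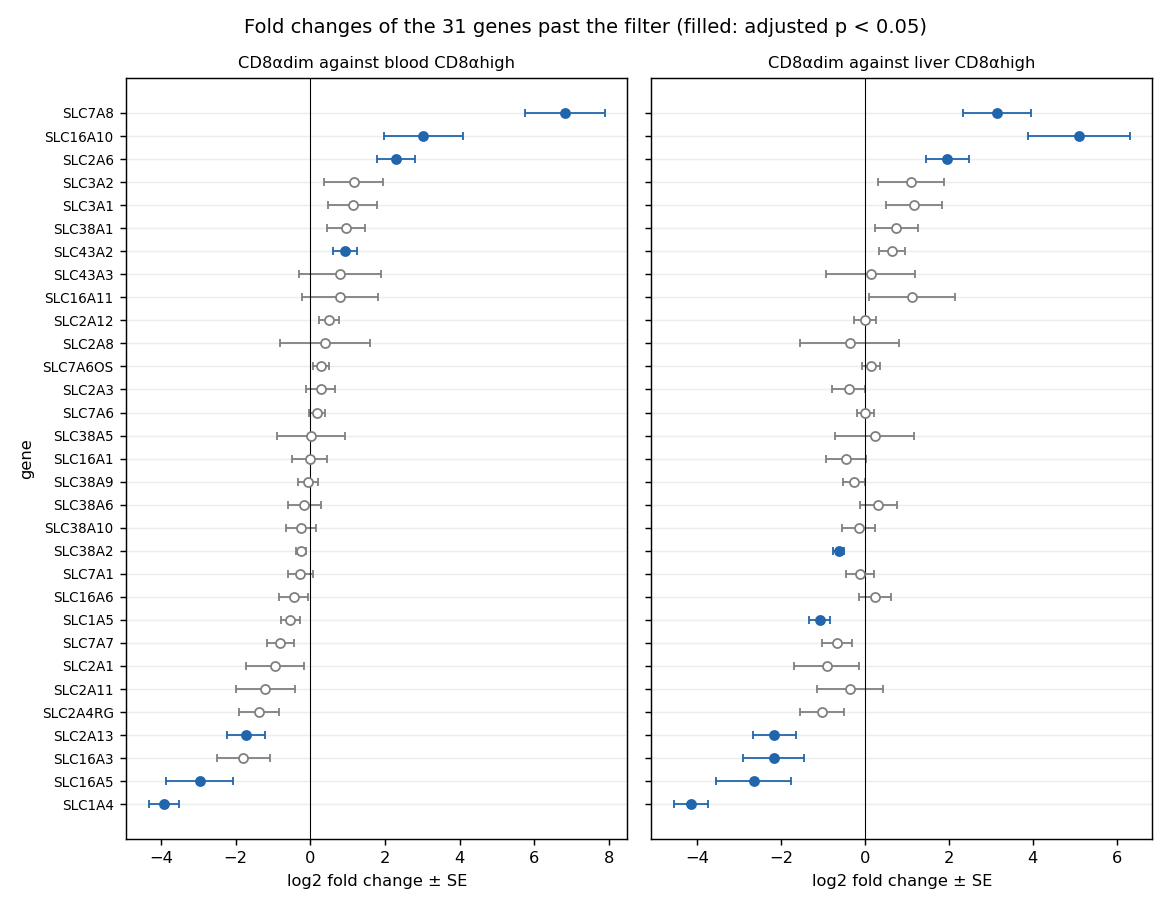
Log2 fold change of lrNK (CD8αdim) cells against blood CD8αhigh cells (left) and against liver CD8αhigh cells (right) for the 31 genes past the filter, ordered by the left panel; bars show 1 standard error and filled points have an adjusted p under 0.05 by edgeR's quasi-likelihood test. SLC7A8 stands at 6.82 and 3.15, SLC16A10 at 3.03 and 5.10, and SLC1A4 at -3.92 and -4.15.

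Between liver and blood CD8αhigh cells, 0 of the 31 genes passed by edgeR and 0 by DESeq2, where 0.064% of all genes tested passed, 0.0457% higher and 0.0183% lower in liver. At an unadjusted p under 0.05, where edgeR placed 549 of all 10939 genes tested, 3 of the 31 were found. These were SLC38A2 (log2 fold change 0.38 ± 0.13 SE, adjusted p = 0.705), SLC1A5 (0.55 ± 0.24, adjusted p = 0.927) and SLC7A8 (3.67 ± 1.09, adjusted p = 0.544; 2.02 without the liver CD8αhigh library of pig 1). SLC38A2 and SLC1A5 were higher in liver in 5 of 5 pigs and were the 2 genes whose libraries did not overlap, where 2.01% of all genes did not. The members' median log2 fold change was 0.16, against -0.02 over all genes tested.

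SLC7A8 encodes LAT2, a light chain that exchanges neutral amino acids, small ones included, when bound to SLC3A2. The gene lies at chr7:75854700-75921931 (Sscrofa11.1). Counts in the blood libraries were 0, 0, 0, 1 and 4 for pigs 1 to 5, in liver CD8αhigh cells 50, 8, 11, 3 and 0, and in lrNK cells 143, 90, 52, 102 and 147. Every lrNK library was above every CD8αhigh library, with levels of 59.4, 43.2, 25.3, 28.6 and 38.4 CPM, and within liver CD8αhigh cells pig 1 stood apart at 17.3 CPM, against 0 to 3.07 CPM in the others. Against blood the log2 fold change was 6.82 ± 1.07 (SE, adjusted p = 9.28e-05). The ratio of pooled levels was 128, with an exact 95% interval of 54.5 to 396 that covers counting error only, since blood held 5 counts in all against 534. Against liver CD8αhigh cells it rose by 3.15 ± 0.81 on the log2 scale (adjusted p = 0.0101), or by 4.80 (adjusted p = 0.000143) with the liver CD8αhigh library of pig 1 left out. Without pig 2 this second value was 2.92 and missed the threshold (adjusted p = 0.061).

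The heavy chain partner, SLC3A2 (CD98), was measured at a low level, with 176 counts in all, and how fully its transcript was counted was not tested. It was at 2.56 ± 1.97 CPM in blood, 2.69 ± 1.42 CPM in liver CD8αhigh cells and 5.91 ± 6.56 CPM in lrNK cells, where the library of pig 3 held 17.5 CPM and the others 1.66 to 4.18 CPM. The difference from blood did not pass (log2 fold change 1.17 ± 0.79, adjusted p = 0.356). SLC3A1, the heavy chain that pairs with SLC7A9 in kidney and gut, likewise had its highest value, 29.7 CPM, in the lrNK library of pig 3, against 2.49 to 10.2 CPM in the other lrNK libraries (against blood 1.14 ± 0.66, adjusted p = 0.272). Its usual partner SLC7A9 was at 0 in all 15 libraries.

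SLC7A6 (y+LAT2) and SLC7A7 (y+LAT1) are light chains that exchange cationic for neutral amino acids. SLC7A6 was at 75.6, 61.4, 94.2, 56.7 and 90.8 CPM in blood, 90.5, 100, 66.9, 88.9 and 77.9 CPM in liver CD8αhigh cells and 98, 103, 73.1, 54.2 and 101 CPM in lrNK cells. The 3 populations overlapped, and the log2 fold change was 0.18 ± 0.21 against blood (adjusted p = 0.629). Levels of SLC7A6OS were 59.1, 55.4, 81.1, 37.2 and 70.6 CPM in blood, 74.6, 81.5, 51, 66.5 and 57.8 CPM in liver CD8αhigh cells and 86.8, 84.5, 67.7, 48.6 and 81 CPM in lrNK cells. The 2 genes share 1935 bases, and how reads in a shared stretch were counted is not known, so their levels are not independent. SLC7A7 was lower in lrNK cells than in blood in 5 of 5 pigs, at 8.85 ± 3.81 against 15.6 ± 3.03 CPM, but did not pass (-0.80 ± 0.36, adjusted p = 0.139).

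SLC7A1 (CAT1) is the sodium-independent carrier of arginine and lysine. Its levels were 34.1, 41.9, 23.6, 44.4 and 35.1 CPM in blood, 27.3, 28, 48, 37.7 and 21.3 CPM in liver CD8αhigh cells and 10.4, 42.2, 44.3, 22.2 and 30.6 CPM in lrNK cells. These ranges overlapped and no difference passed (against blood -0.27 ± 0.33, adjusted p = 0.655; against liver CD8αhigh cells -0.12 ± 0.33, adjusted p = 0.876).

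SLC1A4 (ASCT1, chr3:76938102-76970519), an exchanger of alanine, serine, cysteine and threonine, was the carrier with the lowest adjusted p in both comparisons of lrNK cells. It was at 67.5, 53.2, 57.5, 52.4 and 38.9 CPM in blood, at 72.2, 63.5, 68.6, 70.7 and 41.6 CPM in liver CD8αhigh cells and at 0.831, 8.64, 4.87, 3.09 and 1.31 CPM in lrNK cells. The highest lrNK library lay well under the lowest CD8αhigh library. Means of 53.9 ± 10.3, 63.3 ± 12.6 and 3.75 ± 3.17 CPM put lrNK cells 14.4-fold below blood and 16.9-fold below liver CD8αhigh cells. By edgeR the log2 fold change was -3.92 ± 0.40 against blood (adjusted p = 3.43e-07) and -4.15 ± 0.40 against liver CD8αhigh cells (adjusted p = 2.35e-07), and both passed in all 14 alternatives that gave a value. No other gene of the table overlaps it. Between both CD8αhigh populations the difference was 0.23 ± 0.32 (adjusted p = 1).

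SLC1A5 (ASCT2, chr6:52647432-52661464), which carries glutamine, was at 27.9, 35.6, 26.1, 43 and 36.8 CPM in blood, 50.4, 62.5, 44.1, 46.5 and 44.7 CPM in liver CD8αhigh cells and 19.5, 17.3, 28.7, 17.4 and 33.7 CPM in lrNK cells. Liver CD8αhigh cells were above both other populations in every library, whereas blood and lrNK cells overlapped. Against liver CD8αhigh cells it fell by 1.08 ± 0.25 on the log2 scale in lrNK cells (adjusted p = 0.00378), and without pig 2 by 0.90 (adjusted p = 0.0508). Against blood the value was -0.53 ± 0.25 (adjusted p = 0.15). Counts of SLC1A4 per count of SLC1A5 ran from 1.06 to 2.42 in blood, from 0.93 to 1.56 in liver CD8αhigh cells and from 0.0388 to 0.5 in lrNK cells, so that within each lrNK library SLC1A5 held more counts than SLC1A4, which held in only 1 of the 10 CD8αhigh libraries.

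**Figure D3:**
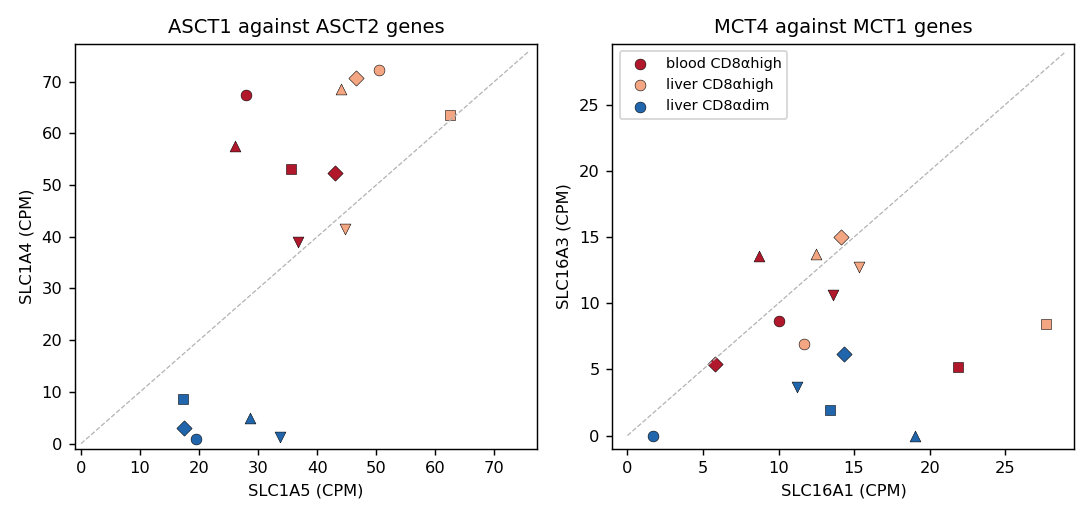
Levels in CPM of SLC1A4 (ASCT1) against SLC1A5 (ASCT2), left, and of SLC16A3 (MCT4) against SLC16A1 (MCT1), right, with 1 point for each library, colour for population, marker shape for pig and a dashed line at equal levels. The 5 lrNK libraries lie at 0.831 to 8.64 CPM of SLC1A4, and the CD8αhigh libraries at 38.9 to 72.2 CPM.

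SLC38A2 (SNAT2, chr5:77113491-77127715) was at 267, 303, 355, 320 and 342 CPM in blood, 407, 430, 405, 424 and 398 CPM in liver CD8αhigh cells and 213, 297, 274, 260 and 285 CPM in lrNK cells. Liver CD8αhigh cells were above both other populations in every library, and lrNK cells were below blood in 5 of 5 pigs with overlapping ranges. In lrNK cells it fell by 0.63 ± 0.13 on the log2 scale against liver CD8αhigh cells (adjusted p = 0.00185, passed in all 14 alternatives), and the value against blood was -0.25 ± 0.13 (adjusted p = 0.211). SLC38A1 (SNAT1), a related glutamine carrier, was at 9.73 ± 4.18 CPM in blood, 11.2 ± 6.67 CPM in liver CD8αhigh cells and 18.8 ± 8.03 CPM in lrNK cells (log2 fold change against blood 0.95 ± 0.51, adjusted p = 0.234), and it shares 6550 bases with a second gene, LOC106510388. That gene had an equal count in 0 of 15 libraries, with differences of up to 42 counts, and unlike SLC38A1 it passed in both comparisons of lrNK cells (1.94, adjusted p = 0.0126, against blood and 2.00, adjusted p = 0.0125, against liver CD8αhigh cells).

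SLC38A9 is a lysosomal protein that senses arginine for the growth-controlling kinase complex mTORC1. It was at 49.9, 25.8, 49.1, 53.1 and 58.7 CPM in blood, 43.2, 54.8, 67.5, 44.5 and 61.1 CPM in liver CD8αhigh cells and 46.1, 61, 32.2, 28.4 and 59 CPM in lrNK cells, and the populations overlapped (against blood -0.06 ± 0.26, adjusted p = 0.917). SLC38A10, an amino acid carrier of the same family, was at 41.2, 26, 20.6, 32.5 and 39.2 CPM in blood, 28, 29, 24.5, 34.8 and 32.5 CPM in liver CD8αhigh cells and 20.4, 20.2, 65.3, 6.46 and 23.2 CPM in lrNK cells. Here 4 of the 5 lrNK libraries were below their pig's blood library and that of pig 3 was the highest of all 15. Its log2 fold change against blood was -0.25 ± 0.40 (adjusted p = 0.734), and -0.99 without pig 3 (adjusted p = 0.0463). SLC38A5 and SLC38A6 were at mean levels of 2.39 to 2.8 and 7.74 to 10.8 CPM, and neither passed in any comparison.

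SLC43A2 (LAT4, chr12:47791911-47839127), a facilitated carrier of branched-chain and aromatic amino acids, was at 15.7, 28, 28.8, 12.3 and 21.5 CPM in blood, 37.3, 17.9, 23.1, 31.9 and 18.4 CPM in liver CD8αhigh cells and 66.5, 35.5, 42.9, 31.5 and 25.9 CPM in lrNK cells. It was higher in lrNK cells than in blood in 5 of 5 pigs, with overlapping ranges. The log2 fold change against blood, 0.92 ± 0.32, passed narrowly (adjusted p = 0.0483), and did not pass when blocked by pig (0.85, adjusted p = 0.072) or with any pig left out (adjusted p from 0.0567 to 0.282). It was also lost without the lrNK library of pig 3 alone (0.0536), without the filter (0.0598) and in a fit of only those 2 populations (0.0747). The value against liver CD8αhigh cells was 0.65 ± 0.31 (adjusted p = 0.205). SLC43A3, a carrier of purine nucleobases, was at 1.6 to 2.83 CPM by population mean and did not pass.

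In the SLC16A family, the gene with the largest rise carries amino acids and not lactate. SLC16A10 (TAT1, chr1:76998359-77139534) lets aromatic amino acids pass by facilitated diffusion. It was at 2.17, 0, 3.26, 0.723 and 0 CPM in blood, 1.38, 0, 0, 0.172 and 0 CPM in liver CD8αhigh cells and 5.4, 10.1, 16.1, 18.3 and 2.87 CPM in lrNK cells. All lrNK libraries were above all liver CD8αhigh libraries, and the lowest lrNK library was under the highest of blood. Against liver CD8αhigh cells it rose by 5.10 ± 1.21 on the log2 scale (adjusted p = 0.00539), on 143 counts against 5, a ratio of pooled levels of 41.5 with an exact 95% interval of 17.4 to 130 that covers counting error only and not the spread between pigs, whose lrNK libraries held 11 to 65 counts. Without pig 4 that value was 4.63 (adjusted p = 0.0509). Against blood it rose by 3.03 ± 1.05 (adjusted p = 0.0489; 3.81 and 0.0179 with the pig as a block), a call that was lost without pig 2, 3, 4 or 5 (adjusted p from 0.0507 to 0.212) and without the lrNK library of pig 3 alone (0.0728).

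The lactate carriers were SLC16A1 (MCT1) and SLC16A3 (MCT4), the latter known for lactate export in glycolytic cells. SLC16A3 (chr12:796882-807480) was at 8.67, 5.21, 13.6, 5.42 and 10.6 CPM in blood, 6.91, 8.44, 13.7, 15 and 12.7 CPM in liver CD8αhigh cells and 0, 1.92, 0, 6.18 and 3.66 CPM in lrNK cells. Every lrNK library was below every liver CD8αhigh library, and in pig 4 the lrNK library was above that of blood. Relative to liver CD8αhigh cells SLC16A3 fell by 2.18 ± 0.72 on the log2 scale (adjusted p = 0.0459), and the call was lost without pig 1, 2, 3 or 5 (adjusted p from 0.0805 to 0.132) and in a fit of only those 2 populations (0.105). Against blood the value was -1.79 ± 0.72 and did not pass (adjusted p = 0.0911), while it did by DESeq2 (0.0403) and without pig 4 (-2.63, adjusted p = 0.0452). SLC16A1 was at 12 ± 6.22, 16.3 ± 6.52 and 11.9 ± 6.4 CPM in blood, liver CD8αhigh and lrNK cells and passed in no comparison (against blood -0.02 ± 0.48, adjusted p = 0.991). Whether the ratio of the 2 genes differed between populations was not tested.

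SLC16A5 (MCT6, chr12:6185515-6204601), a relative that carries certain drugs, was at 8.13, 3.02, 5.7, 4.7 and 8.19 CPM in blood, 3.11, 3.43, 7.53, 3.45 and 6.45 CPM in liver CD8αhigh cells and 0.831, 2.88, 0, 0 and 0.261 CPM in lrNK cells. No lrNK library reached a CD8αhigh library. In lrNK cells it fell by 2.96 ± 0.90 on the log2 scale against blood (adjusted p = 0.0239) on 9 counts against 99, and by 2.65 ± 0.89 against liver CD8αhigh cells (adjusted p = 0.0497). The first call was lost without pig 1, 3, 4 or 5 (adjusted p from 0.0654 to 0.137), and the second without pig 1, 3, 4 or 5 (0.108 to 0.234), without the lrNK library of pig 3 (0.0767), without the liver CD8αhigh library of pig 1 (0.0605) and with the pig as a block (0.069). It was also lost with the size factors of DESeq2 (0.052), without scaling factors (0.0555), without the filter (0.0866) and in a fit of only those 2 populations (0.0961), so that it passed in 3 of 14 alternatives. SLC16A6 and SLC16A11, further members of the family, did not pass, at population means of 17.4 to 27.8 and 2.08 to 4.56 CPM.

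**Figure D4:**
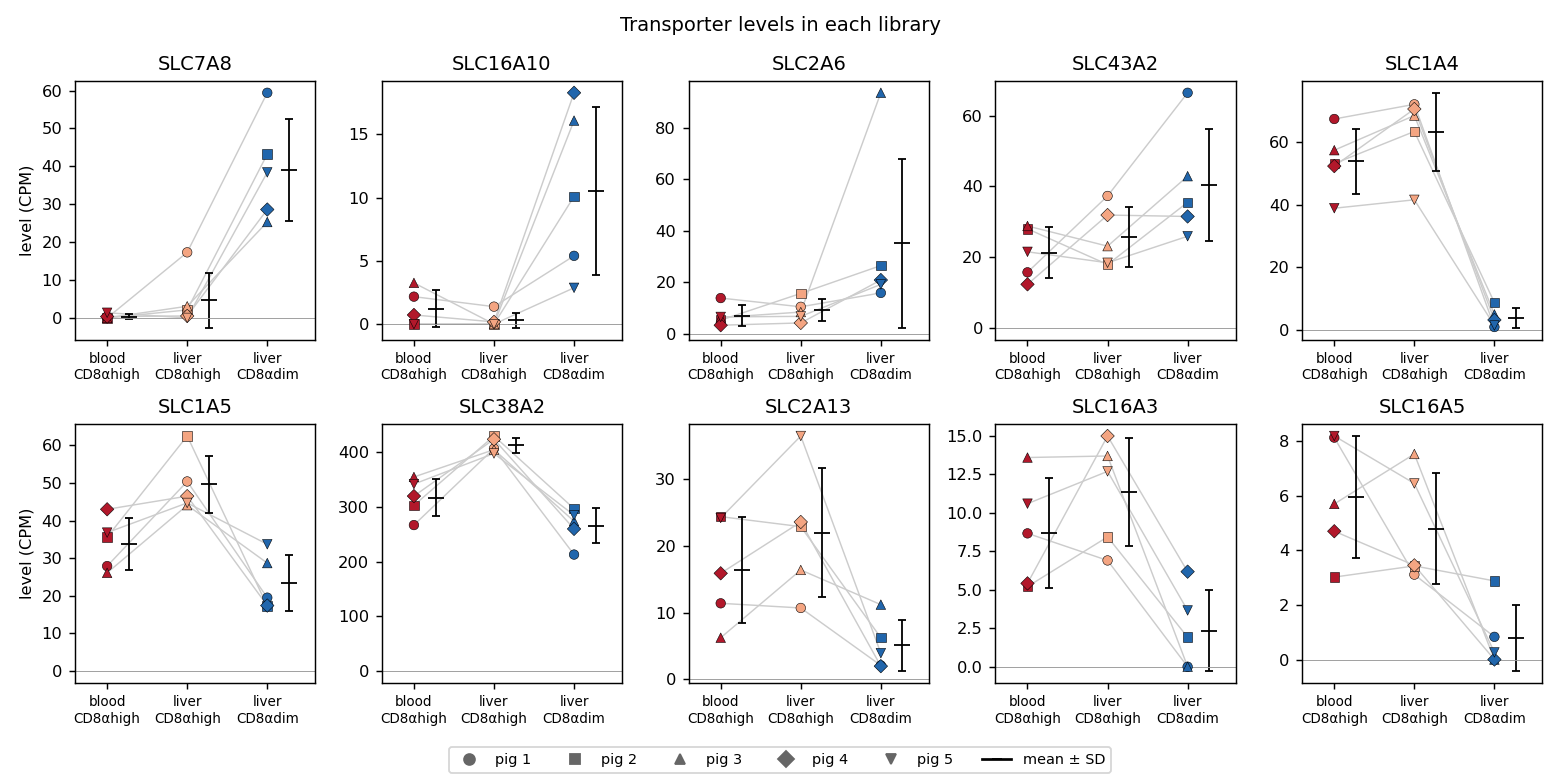
Level in CPM (vertical axis, a scale of its own in each panel) of the 10 genes that passed in any comparison, in each library of blood CD8αhigh, liver CD8αhigh and liver CD8αdim (lrNK) cells, with marker shape for pig and mean ± SD beside the points. SLC7A8 is at 0 to 1.36 CPM in blood, SLC16A10 is at 0 to 1.38 CPM in liver CD8αhigh cells, SLC1A4 is at 0.831 to 8.64 CPM in lrNK cells, and the lrNK library of pig 3 holds the 93.5 CPM of SLC2A6.

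The sugar carriers best known in lymphocytes, SLC2A1 (GLUT1) and SLC2A3 (GLUT3), passed in no comparison. SLC2A3 was at 15.2 ± 8.33 CPM in blood, 24.1 ± 6.33 CPM in liver CD8αhigh cells and 18.4 ± 6.68 CPM in lrNK cells (log2 fold change against blood 0.28 ± 0.39, adjusted p = 0.705). SLC2A1 was at 5.87 ± 3.77, 5.75 ± 2.3 and 2.98 ± 2.03 CPM (against blood -0.94 ± 0.77, adjusted p = 0.463), and its blood libraries ran from 0.542 to 9.55 CPM. It shares 20710 bases with a second gene, ZNF691, which had an equal count in 0 of 15 libraries. SLC2A12 (GLUT12) had the highest mean level of the family, with 33.1, 20.6, 37.4, 28.9 and 31.4 CPM in blood, 31.1, 53.3, 54.1, 26.7 and 49.7 CPM in liver CD8αhigh cells and 25.3, 41.8, 57.5, 54.2 and 35.5 CPM in lrNK cells. The ranges overlapped, no difference passed (against blood 0.50 ± 0.27, adjusted p = 0.233), and its counts cannot be assigned to it alone: a second gene, TBPL1, shares 2041 bases with it and had the same count in 8 of 15 libraries and a difference of at most 6 counts in the others.

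SLC2A6 (GLUT6, chr1:273063261-273075455), a hexose carrier of intracellular membranes, was at 13.8, 5.21, 6.24, 3.25 and 6.48 CPM in blood, 10.4, 15.6, 8.36, 4.14 and 6.69 CPM in liver CD8αhigh cells and 15.8, 26.4, 93.5, 20.8 and 19.1 CPM in lrNK cells. The lrNK libraries were all above the CD8αhigh libraries, by little in pig 1 and by most in pig 3. It rose by 2.30 ± 0.52 on the log2 scale against blood (adjusted p = 0.00317) and by 1.96 ± 0.51 against liver CD8αhigh cells (adjusted p = 0.0114). Without pig 3 these were 1.49 (adjusted p = 0.045) and 1.16, the latter no longer past the threshold (adjusted p = 0.147; without only the lrNK library of pig 3, 1.19 and 0.0704). Counts at this locus belong to more than 1 gene: ADAMTS13 and CACFD1 share 3656 bases with SLC2A6, and each had the same count as SLC2A6 in 11 of 15 libraries, so the reads could come from any of the 3 genes.

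SLC2A13 (HMIT, chr5:71294999-71673853) carries myo-inositol with a proton and not glucose. Its levels were 11.4, 24.4, 6.24, 15.9 and 24.2 CPM in blood, 10.7, 22.9, 16.4, 23.6 and 36.5 CPM in liver CD8αhigh cells and 2.08, 6.24, 11.2, 1.97 and 3.92 CPM in lrNK cells. In pig 3 the lrNK library was above that of blood, and in the other 4 pigs it was below. Relative to liver CD8αhigh cells, where it was lower in 5 of 5 pigs, it fell by 2.16 ± 0.51 on the log2 scale (adjusted p = 0.00523; without pig 5 by 1.81, adjusted p = 0.0667). Against blood it fell by 1.73 ± 0.51 (adjusted p = 0.0203), a call lost without pig 1, 2, 4 or 5 (adjusted p from 0.0501 to 0.125) and in a fit of only those 2 populations (0.0566). SLC2A8 and SLC2A11 did not pass, and SLC2A8 was at 15.6 CPM in the lrNK library of pig 3 and at 0 to 1.31 CPM in the other lrNK libraries. SLC2A4RG was at 4.13 ± 2.87 CPM in lrNK cells, below blood in 5 of 5 pigs, and did not pass (-1.38 ± 0.54, adjusted p = 0.0826).

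Genes that act with these carriers were counted in 6 lists, whose counts are to be read against the 18.2% of all genes tested that passed between lrNK cells and blood and the 14.6% between lrNK and liver CD8αhigh cells. At an unadjusted p under 0.05 by edgeR, 3223 of all 10939 genes tested differed between lrNK cells and blood. The same held for 2722 between lrNK and liver CD8αhigh cells and for 549 between the CD8αhigh populations. Of the lists' 72 tested genes, 0 passed between liver and blood CD8αhigh cells by edgeR and 0 by DESeq2, with 5 at an unadjusted p under 0.05 by edgeR. Of the 3 glycoproteins that bring monocarboxylate carriers to the membrane, BSG, EMB and NPTN, 0 passed in any comparison by edgeR or by DESeq2, with 0 at an unadjusted p under 0.05, and BSG was at 41.8 ± 6.25, 45 ± 12.2 and 39.2 ± 20.2 CPM in blood, liver CD8αhigh and lrNK cells. Of 9 tested regulators of glucose uptake, only AKT1, a kinase that drives GLUT proteins to the surface, passed, and it fell by 0.48 ± 0.16 on the log2 scale in lrNK cells against blood (adjusted p = 0.0447; blocked by pig, 0.0538). No regulator passed against liver CD8αhigh cells, by edgeR (2 of 9 at an unadjusted p under 0.05, against 2722 of 10939 genes) or by DESeq2.

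Of 33 tested genes of amino acid sensing and mTORC1, 1 was higher and 2 were lower in lrNK cells than in blood, where 18.2% of all genes passed, and 1 was higher and 1 lower than in liver CD8αhigh cells, where 14.6% did. The share of the list that passed was below that of all genes in both comparisons, and its median log2 fold changes were 0.04 and 0.02, against 0.01 and 0.02 over all genes. SESN3, a sestrin that restrains mTORC1, rose by 0.92 ± 0.20 against blood (adjusted p = 0.00224) and by 0.65 ± 0.20 against liver CD8αhigh cells (adjusted p = 0.0308). NPRL2, a subunit of the GATOR1 complex that also restrains mTORC1, fell by 0.81 ± 0.20 (adjusted p = 0.00596) and by 0.68 ± 0.20 (adjusted p = 0.0233), and the arginine sensor CASTOR1 fell by 1.18 ± 0.30 against blood (adjusted p = 0.00859). With the pig as a block, LAMTOR1 (adjusted p = 0.0429) and SESN2 (0.0411) passed as well against liver CD8αhigh cells. Of 8 tested genes of the response to scarce amino acids, 2 passed between lrNK cells and blood, near the 18.2% of all genes, and the list's median was -0.03. TRIB3 was higher in lrNK cells than in blood (log2 fold change 5.19 ± 1.19, adjusted p = 0.00354) on 73 counts against 2, and DDIT4 fell by 1.26 ± 0.37 (adjusted p = 0.0187). None of the 8 passed against liver CD8αhigh cells by edgeR or DESeq2, and 0 had an unadjusted p under 0.05 by edgeR, where 2722 of all 10939 genes did.

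Of 10 tested enzymes that act first on imported solutes, 3 were lower in lrNK cells than in blood and 2 were lower than in liver CD8αhigh cells, where 9.6% and 7.68% of all genes were lower. The list's median log2 fold changes were 0.13 and 0.03. GLUL, which makes glutamine from glutamate, was at 144 ± 35.8 CPM in blood, 122 ± 19.1 CPM in liver CD8αhigh cells and 15.4 ± 6.56 CPM in lrNK cells. It fell by 3.24 ± 0.27 against blood (adjusted p = 2.22e-08) and by 3.00 ± 0.27 against liver CD8αhigh cells (adjusted p = 5.83e-08), and its libraries did not overlap. BCAT1, which starts the breakdown of branched-chain amino acids, fell by 1.14 ± 0.34 (adjusted p = 0.0208) and by 1.48 ± 0.34 (adjusted p = 0.00395). GLUD1, glutamate dehydrogenase, fell by 0.76 ± 0.24 against blood (adjusted p = 0.0275), and ODC1, which starts polyamine synthesis from ornithine, rose by 0.98 ± 0.30 against liver CD8αhigh cells (adjusted p = 0.0288). With the pig as a block, GLUD1 passed against liver CD8αhigh cells too (0.0172) and ODC1 against blood (0.0366).

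Of 9 tested carriers of the same solutes from other families, SLC36A4, a neutral amino acid carrier, was the 1 that passed, a count near or below the 18.2% and 14.6% of all genes. It was at 38.3 ± 5.76 CPM in blood, 35 ± 7.43 CPM in liver CD8αhigh cells and 13.5 ± 3.54 CPM in lrNK cells, where it fell by 1.50 ± 0.25 (adjusted p = 0.000193) and by 1.37 ± 0.25 (adjusted p = 0.000568) on the log2 scale.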

How the data were processed

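RNA of sorted NK cells was sequenced from the 3′ end (QuantSeq 3′ mRNA FWD), giving 15 libraries. Reads were trimmed by the authors and aligned with HISAT2 to Sscrofa11.1, and the authors deposited whole-number counts for 29886 genes. How reads were counted, by strand or not and with several alignments or not, is not given in the sources used here. Each of the 15 columns carries the label of 1 population and 1 pig.

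Tests of the counts used edgeR 4.0.16 in R 4.3.3 (TMM scaling, default filter by population, quasi-likelihood test, Benjamini-Hochberg adjustment over 10939 genes, all 15 libraries in 1 fit). The standard error is the log2 fold change divided by the square root of F. The members, the lists of related genes and the alternatives were chosen with earlier results of these data known. Library values are given for genes with an adjusted p under 0.05 in any comparison and for the 10 with the highest mean CPM. The other lists' called genes are named, and some results are not reported here.

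The same animals gave blood and liver cells, so a second fit had the pig as a block. Deviations from population means correlated by 0.107 on average within pigs and by -0.0265 between pigs. Other alternatives were DESeq2 1.42.0, its size factors, no scaling factor, other filters and thresholds, a fit of 2 populations and leaving out each pig. The fits were first tested on simulated data with 200 changed genes. Between lrNK cells and blood, edgeR recovered 66 of the 100 genes changed 4-fold and 24 of the 100 changed 2-fold, with 4 false calls. A gene that did not pass may thus still differ. Coordinates and overlaps came from a RefSeq gene table of the same assembly, and no sequence was read. Overlaps not described above include SLC38A9 with PLPP1 (101950 bases), SLC16A6 with ARSG (17486) and SLC3A1 with PREPL (2147). Each of these pairs had equal counts in 0 of 15 libraries. Figures were drawn with matplotlib 3.10.9.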

Additional observations from a re-analysis of the deposited data

Results flagged for a closer look

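In 13 of 93 sets of 5 libraries (31 genes in 3 populations), 1 library stood so far from the other 4 that its gap exceeded 0.71 of the whole range. Chance gives about 1 in 20 such sets for normally distributed values. Many of these counts are low or 0, so that rate does not hold here and no excess is read from the 13. The lrNK library of pig 3 accounted for 5 of the 13 sets, with SLC2A6 at 93.5 CPM (others 15.8 to 26.4), SLC2A8 at 15.6 CPM (0 to 1.31), SLC38A10 at 65.3 CPM (6.46 to 23.2), SLC3A1 at 29.7 CPM (2.49 to 10.2) and SLC3A2 at 17.5 CPM (1.66 to 4.18). In the lrNK library of pig 2, SLC38A1 was at 32.6 CPM (13.2 to 17.9) and SLC16A5 at 2.88 CPM (0 to 0.831).

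Among liver CD8αhigh libraries, that of pig 1 was apart for SLC7A8, at 17.3 CPM (0 to 3.07), and SLC16A10, at 1.38 CPM (0 to 0.172). That of pig 5 was apart for SLC1A4, the lowest at 41.6 CPM (63.5 to 72.2), and for SLC3A1, at 8.6 CPM (3.11 to 4.18). In pig 2 SLC16A1 was at 27.7 CPM (11.7 to 15.3). In blood, SLC7A8 was at 1.36 CPM in pig 5 (0 to 0.361).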

How the results depend on the processing

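Of 666 recomputed fold changes of single genes, 604 kept their direction and their side of the threshold, 45 no longer passed, 3 passed only then and 14 changed sign, and 6 could not be computed. Leaving out each pig in turn gave 2 to 3 genes higher (4 with all pigs) and 1 to 3 lower (3 with all pigs) in lrNK cells than in blood, and 2 to 3 higher (3) and 3 to 5 lower (6) than in liver CD8αhigh cells, the lowest without pig 5. Without only the lrNK library of pig 3, 2 were higher than in blood, and without only the liver CD8αhigh library of pig 1, 4 were. At a threshold of 0.01 on the adjusted p, 2 genes were higher and 1 lower than in blood and 1 was higher than in liver CD8αhigh cells. At 0.1, 5 were lower than in blood, and a fit of only those 2 populations gave 1 lower. With the pig as a block, 3 were higher and 3 lower than in blood, and 3 higher and 5 lower than in liver CD8αhigh cells. The block ended the calls of SLC43A2 against blood and SLC16A5 against liver CD8αhigh cells and changed no other call of a transporter. The count between liver and blood CD8αhigh cells was 0 in every alternative. With more than 10 counts as the limit, 38 of the 65 genes were detected and not 43.

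Sign changes were seen only in log2 fold changes that did not pass. Over left-out pigs, SLC38A10 ran from -0.99 to 0.02 against blood, from -0.83 to 0.17 against liver CD8αhigh cells and from -0.16 to 0.04 between the CD8αhigh populations. SLC38A9 ran from -0.34 to 0.12 against blood (0.06 without the lrNK library of pig 3). SLC7A1 ran from -0.33 to 0.04 and SLC7A6 from -0.08 to 0.16 against liver CD8αhigh cells (-0.02 with the pig as a block). Between the CD8αhigh populations SLC2A6 ran from -0.04 to 0.70 and SLC7A6OS from -0.01 to 0.33. The cause was not tested.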
